A study of Mus musculus with 6 samples.

Results

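The genes described here encode proteoglycans, a fibulin and matricellular proteins of the extracellular matrix, 10 genes of 18194 on the array. They were taken by name: Ncan, Vcan, Dcn, Lum, Bgn, Fmod, Fbln1, Postn, Sparc and Thbs1, with every probe set that the platform annotation assigns to 1 gene symbol, 32 probe sets in all. Another probe set, which the annotation assigns to Thbs1 together with a second gene, was left out. The fat came from male mice that either lacked Kdm4b, a histone demethylase gene, in the whole body (KO) or were wild type (WT), and it was taken from the epididymal, the subcutaneous and the brown depot. All mice were 2 months old, were held at room temperature on a chow diet, and were fasted for 6 hours before their fat was taken. The study asked how gene expression in fat relates to the obesity seen in mice without Kdm4b. Each depot and genotype had 1 Affymetrix array, 6 arrays in all. The labels give neither the deleted part of Kdm4b nor the number of mice behind each array, and they do not say whether the depots of a genotype came from the same mice.

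Proteoglycans are proteins that carry glycosaminoglycan chains. Dcn (decorin), Lum (lumican), Bgn (biglycan) and Fmod (fibromodulin) are small leucine-rich proteoglycans, which bind collagen and control the assembly of collagen fibrils. Vcan (versican) and Ncan (neurocan) are large proteoglycans that bind hyaluronan, and neurocan is known mainly from brain matrix. Fbln1 (fibulin 1) is a glycoprotein of elastic fibres and basement membranes. Postn (periostin), Sparc and Thbs1 (thrombospondin 1) are matricellular proteins, secreted proteins that act on cells and on matrix assembly more than as structural elements. Sparc binds collagen and is known as an inhibitor of adipocyte differentiation, and thrombospondin 1 activates latent TGF-beta and inhibits angiogenesis. Most of these genes are expressed in fat mainly by stromal cells around the adipocytes, including fibroblasts and adipocyte precursors.

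Promoter windows of 250 bases before to 50 bases after a transcription start were found for 7 of the 10 genes in RefSeq (GRCm38.p6). Dcn, Lum and Thbs1 had none in that table. The windows of Ncan, Vcan and Fmod are printed because these genes show the 3 patterns described below. Ncan was higher on every KO array, Vcan, which binds hyaluronan as Ncan does, was dim in brown fat, and Fmod had the greatest difference between brown and white fat of the 10 genes. Capitals mark matches to any of 5 motifs, each searched on both strands with overlaps allowed. The TATA box was searched as TATAAA and the GC box as GGGCGG. The CCAAT box was searched by the letters of its name. The E-box was searched as CACGTG, and the AP-1 motif as TGANTCA.
Ncan promoter, chr8:70120795-70121094, minus strand: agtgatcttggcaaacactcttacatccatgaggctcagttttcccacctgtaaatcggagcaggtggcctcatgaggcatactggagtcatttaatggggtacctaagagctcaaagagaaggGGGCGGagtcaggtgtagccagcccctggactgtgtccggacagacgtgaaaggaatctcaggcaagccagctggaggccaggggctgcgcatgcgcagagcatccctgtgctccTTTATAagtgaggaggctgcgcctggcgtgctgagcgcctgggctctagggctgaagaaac
Vcan promoter, chr13:89742463-89742762, minus strand: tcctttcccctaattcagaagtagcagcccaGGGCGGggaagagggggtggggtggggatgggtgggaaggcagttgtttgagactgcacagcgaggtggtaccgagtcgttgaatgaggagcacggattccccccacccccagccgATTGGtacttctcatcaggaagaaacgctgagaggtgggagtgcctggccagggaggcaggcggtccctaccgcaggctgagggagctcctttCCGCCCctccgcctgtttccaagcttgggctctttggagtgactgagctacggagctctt
Fmod promoter, chr1:134037004-134037303, plus strand: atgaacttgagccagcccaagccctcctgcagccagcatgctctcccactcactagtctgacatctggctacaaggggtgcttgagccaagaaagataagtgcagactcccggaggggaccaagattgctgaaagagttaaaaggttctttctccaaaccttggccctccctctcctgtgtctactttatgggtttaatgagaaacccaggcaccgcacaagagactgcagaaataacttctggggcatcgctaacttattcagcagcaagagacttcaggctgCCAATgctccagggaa
The Ncan window holds 1 GC box and, on the strand opposite to the gene, 1 TATA box. The Vcan window holds 2 GC boxes and 1 CCAAT box, and the Fmod window 1 CCAAT box. Of all 32851 windows in the table, 13.6% hold the TATA letters, 35.7% the GC box, 37.4% the CCAAT box, 7.15% the E-box and 7.81% the AP-1 letters. A match describes the letters of the window and does not show that a factor binds there. In the same RefSeq table Dcn and Lum lie next to each other among protein-coding genes, Ncan lies next to Hapln4 and Vcan next to Hapln1, both genes of hyaluronan link proteins, and Fmod lies next to Prelp, another small leucine-rich proteoglycan gene.

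Signals are MAS5 intensities, and a signal floor of 63.2, the 40th percentile of the probe sets other than controls, was applied before the log2 scale. Between 12651 and 13602 genes lay above the floor on an array. Kdm4b, with 1 probe set, had signals of 188.4 in KO and 226.7 in WT epididymal fat, 156.7 in KO and 272.1 in WT subcutaneous fat, and 95.2 in KO and 134.6 in WT brown fat. A probe set outside the deleted part would not check the genotype. Summed signals of 6 brown adipocyte markers were 156651.8 in KO and 177825.8 in WT brown fat, against 13442.3 to 20136.2 on the 4 white-fat arrays. The 7 mesothelial markers, which mark the lining of visceral fat, were all above the floor on both epididymal arrays. Skeletal muscle markers, 10 genes, summed to 2161.6 in KO and 5200.2 in WT epididymal fat, 62192.1 in KO and 53900.9 in WT subcutaneous fat, and 559.5 in KO and 17229.6 in WT brown fat. With 1 array a group there is no test within a depot, and the only error there is the SD of log2 differences between probe sets of the same gene, 0.31 for the epididymal depot and 0.32 for each of the others. That SD leaves out the variation among mice.

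**Figure D1:**
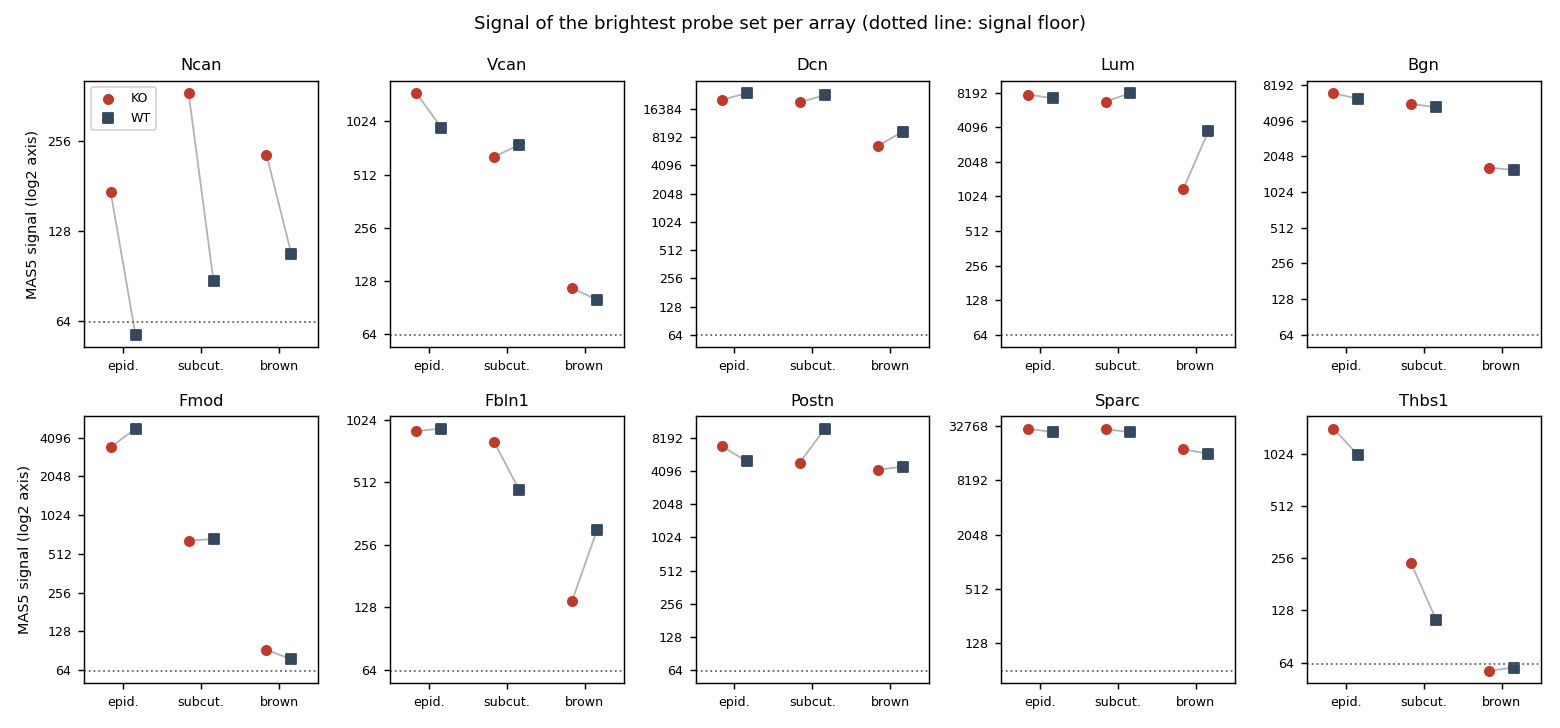
MAS5 signal (log2 axis) of the brightest probe set of each gene on the 6 arrays, KO as circles and WT as squares within each depot, with the signal floor of 63.2 as a dotted line. Ncan is higher on all KO arrays, and the brown-fat points of Vcan, Dcn, Lum, Bgn, Fmod, Fbln1, Postn, Sparc and Thbs1 lie below the 4 white-fat points. The brown-fat points of Thbs1 lie under the floor, and the share of all genes with brown fat lowest was not counted.

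The first comparison asked how these genes differ between KO and WT fat. Ncan was higher in the KO array of every depot, Dcn was lower in every depot by a smaller amount, Bgn and Sparc differed little, and Thbs1 was higher in KO in both white depots. For the others the difference exceeded the SD between probe sets in 1 depot, or did so in opposite directions in 2. In the limma fit of all 6 arrays with depot and genotype as terms, 0 of the 10 genes passed an adjusted p of 0.05 for genotype, where 0% of 13233 genes passed and the smallest adjusted p of any gene was 0.443. At an unadjusted p under 0.05, 2 of the 10 genes, Ncan and Dcn, stood out, beside 8.34% of all genes (3.8% higher and 4.53% lower in KO). Because the 3 depots take the place of replicates here, the p-values speak of agreement among depots, and the variation among mice is not measured.

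Ncan had a signal of 172.1 in KO and 57.2 in WT epididymal fat. In subcutaneous fat it had 369.4 in KO and 86.9 in WT, and in brown fat 229.9 in KO and 106.9 in WT. All 3 KO signals lay above all 3 WT signals, and the epididymal WT signal lay under the floor. The KO array was at least 2.72-fold higher in epididymal, 4.25-fold higher in subcutaneous and 2.15-fold higher in brown fat. Ncan was thus past 2-fold in all 3 depots, which held for 0.0577% of the 12138 genes measured in all of them. That pattern was known when the genes were chosen and is a description. The mean log2 difference was at least 1.55 ± 0.50 (SD, n = 3 depots), and the limma estimate was 1.55 with a 95% interval of 1.0 to 2.09 (adjusted p = 0.443, unadjusted p = 0.000711, higher in 3 of 3 depots). Over the alternative settings the limma adjusted p lay between 0.0262, after centring each array on its median, and 0.867, without either epididymal array.

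The other probe sets of Ncan were dimmer and lay on the same side. The second had signals of 80.8 in KO and 46.8 in WT epididymal fat, 135.2 in KO and 14.1 in WT subcutaneous fat, and 126.6 in KO and 85.6 in WT brown fat. The third had 74.6 in KO and 34.3 in WT epididymal fat, 94.7 in KO and 27.6 in WT subcutaneous fat, and 98.2 in KO and 26.7 in WT brown fat. All 9 pairs of KO and WT signals over the 3 probe sets were higher in KO. Fitted as features of their own, the second and the last probe sets had limma estimates of 0.67 and 0.49 (adjusted p = 0.534 and 0.539), with KO above WT in all 3 depots. The WT signals of Ncan lay near or under the floor, and the size of its difference depends on that setting. With the floor at the 60th percentile its log2 differences were 0.42 in brown, 1.10 in subcutaneous and 0.0029 in epididymal fat, and with the mean of its probe sets 0.77, 1.26 and 0.68. Of 8 neural and Schwann cell markers 6 were on the array, and their summed signal was 667.3 in KO and 586.4 in WT epididymal fat, 4210.7 in KO and 5222.4 in WT subcutaneous fat, and 5315.2 in KO and 4659.7 in WT brown fat. Snap25 and Tubb3 were under the floor on all 6 arrays. The other markers of this list did not move together. Mbp, a myelin gene, was lower in KO in each depot, with 208.7 in KO and 254.3 in WT epididymal fat, 3507.6 in KO and 4803.4 in WT subcutaneous fat, and 501.4 in KO and 721.1 in WT brown fat. S100b was higher in KO in each depot, and Sox10 was lower in KO in epididymal (19.8 in KO, 75.1 in WT) and brown fat (98.5 in KO, 163.7 in WT) and higher in subcutaneous fat (104.9 in KO, 85.7 in WT). Gfap, an astrocyte gene of this list, had 77.7 in KO and 7.2 in WT epididymal fat, 106.2 in KO and 21.1 in WT subcutaneous fat, and 161.8 in KO and 15.3 in WT brown fat. It was above the floor on the KO arrays alone, and the part of neural cells in the Ncan difference was not tested.

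**Figure D2:**
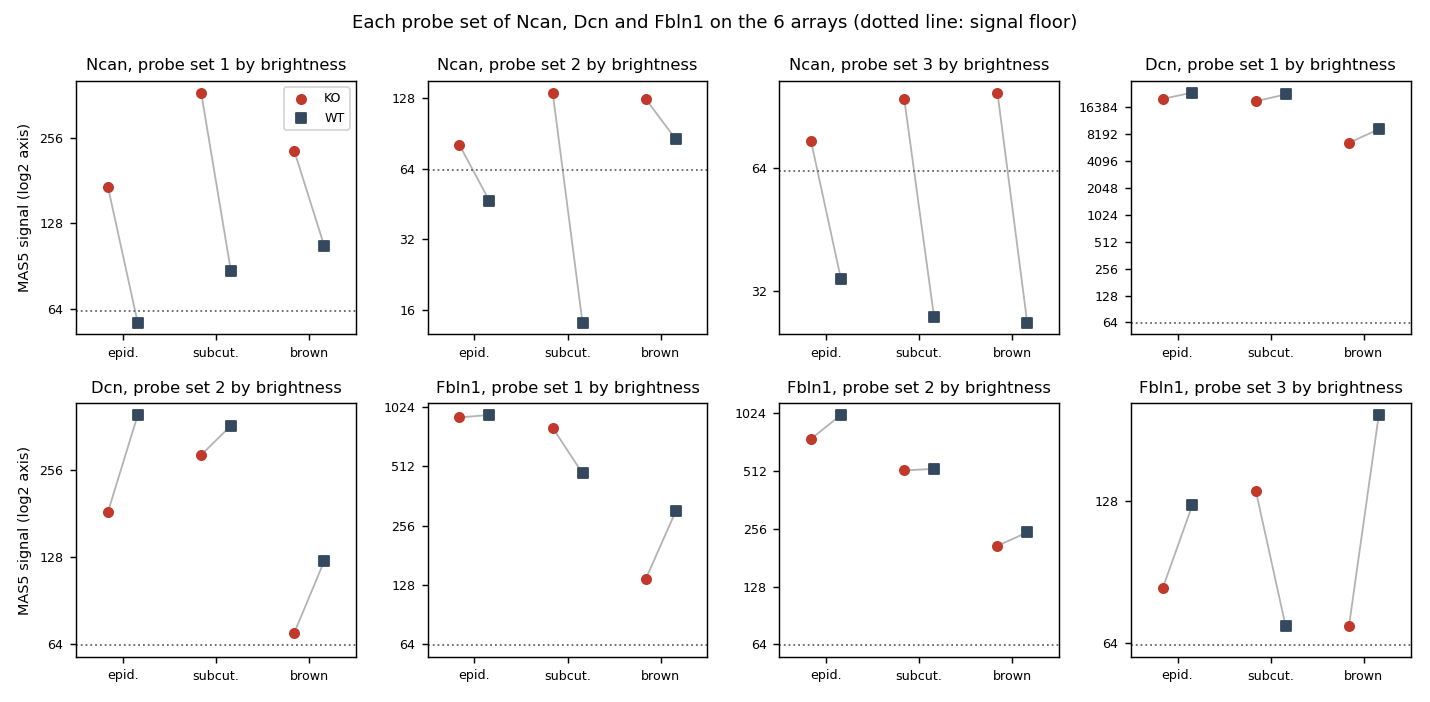
MAS5 signal (log2 axis) of each probe set of Ncan, Dcn and Fbln1 on the 6 arrays, KO as circles and WT as squares, with the signal floor of 63.2 as a dotted line. The 3 Ncan probe sets are higher and the 2 Dcn probe sets lower in KO in every depot, while the 3 Fbln1 probe sets differ in direction in subcutaneous fat.

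Among the small leucine-rich proteoglycans, Dcn had signals of 20435.4 in KO and 24083.9 in WT epididymal fat, 19244.4 in KO and 22969.2 in WT subcutaneous fat, and 6588.2 in KO and 9364.7 in WT brown fat. The KO array was the lower one in each depot, by 0.24, 0.26 and 0.51 as absolute log2 differences, of which the brown-fat one exceeds the SD between probe sets. The limma estimate was -0.33 with a 95% interval of -0.65 to -0.02 (adjusted p = 0.590, unadjusted p = 0.0420, lower in 3 of 3 depots). A second Dcn probe set had 183.2 in KO and 397.3 in WT epididymal fat, 288.6 in KO and 365.0 in WT subcutaneous fat, and 69.9 in KO and 123.7 in WT brown fat. It too was lower in each KO array, with a limma estimate of -0.76 (adjusted p = 0.505). A KO signal below the WT signal by any amount in all 3 depots was found for 17.2% of the genes measured in all of them.

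Lum, the neighbour of Dcn, had a signal of 1198.2 in KO and 3779.8 in WT brown fat, where it was 3.15-fold lower in KO. In epididymal fat it had 7903.5 in KO and 7347.8 in WT, and in subcutaneous fat 6867.4 in KO and 8131.3 in WT, both differences within the SD between probe sets. The brown KO array thus stands below the other 5, and Lum has 1 probe set, so no second one checks it. In brown fat 333 of 13779 measured genes, 2.42%, were at least 2-fold lower in KO. Markers of fibroblasts and adipocyte precursors (9 of 10 on the array, all above the floor on all arrays) were lower in brown KO for 9 of 9 genes, with a summed signal of 20176.4 in KO and 29132.7 in WT and a median log2 difference of -0.46. Their part in the Lum and Dcn differences, and that of the skeletal muscle RNA in the WT brown array, was not tested. In bulk tissue, fewer cells of a type and less RNA per cell cannot be told apart.

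Bgn had signals of 6972.1 in KO and 6241.9 in WT epididymal fat, 5659.4 in KO and 5298.1 in WT subcutaneous fat, and 1641.9 in KO and 1569.2 in WT brown fat. Its 3 probe sets were higher in KO in all 3 depots, by differences smaller than the SD between probe sets. After median centring the subcutaneous difference was -0.05 in place of 0.10 on the log2 scale. A KO signal above the WT signal by any amount in all 3 depots was found for 16.2% of the genes measured in all of them. Fmod had 3456.7 in KO and 4827.3 in WT epididymal fat, 1.40-fold lower in KO, and its 6 probe sets were all lower in KO there. In subcutaneous fat it had 646.6 in KO and 669.3 in WT, and in brown fat 92.1 in KO and 77.4 in WT. The limma intervals for genotype were -0.18 to 0.39 for Bgn and -0.54 to 0.35 for Fmod (log2 difference, adjusted p = 0.793 and 0.890).

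Vcan, the widely expressed hyaluronan-binding proteoglycan, was 1.57-fold higher in KO in epididymal fat, with 1480.5 in KO and 945.5 in WT. Its 3 probe sets above the floor were all higher in KO in that depot. In subcutaneous fat the brightest probe set had 646.8 in KO and 754.9 in WT, and the same 3 probe sets were all lower in KO, with log2 differences of -0.22, -0.12 and -0.60, the last beyond the SD between probe sets. In brown fat the brightest had 116.5 in KO and 100.7 in WT, a difference within that SD. The remaining 5 Vcan probe sets were under the floor on all 6 arrays. Over the depots the limma estimate for Vcan was 0.21, with a 95% interval of -0.28 to 0.70 (adjusted p = 0.760).

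Fbln1 differed in opposite directions in subcutaneous and brown fat on its brightest probe set. In subcutaneous fat it had 801.9 in KO and 471.0 in WT, 1.70-fold higher in KO, and in brown fat 137.5 in KO and 302.3 in WT, 2.20-fold lower in KO. In epididymal fat it had 905.3 in KO and 931.5 in WT. The second probe set had 516.1 in KO and 526.4 in WT subcutaneous fat, 209.0 in KO and 245.3 in WT brown fat, and 753.9 in KO and 1004.9 in WT epididymal fat, so it does not show the subcutaneous difference. The third, dim probe set had 134.8 in KO and 69.5 in WT subcutaneous fat and 69.5 in KO and 195.4 in WT brown fat. All 3 probe sets were lower in KO in brown fat, 2 of them by more than 2-fold.

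Among the matricellular genes, Postn had signals of 4875.2 in KO and 9920.6 in WT subcutaneous fat, 2.03-fold lower in KO. In epididymal fat it had 6848.9 in KO and 4992.8 in WT, 1.37-fold higher in KO, and in brown fat 4207.4 in KO and 4467.8 in WT. The subcutaneous WT array thus stands above the other 5, and Postn has 1 probe set. In subcutaneous fat 0.75% of 13872 measured genes were at least 2-fold lower in KO. Markers of fibroblasts and adipocyte precursors were lower in subcutaneous KO for 9 of 9 genes, with a summed signal of 81441.0 in KO and 92570.6 in WT. In epididymal fat the sums were 65758.2 in KO and 62351.6 in WT, but 5 of these genes were higher and 4 lower in KO (median log2 difference 0.03). In the subcutaneous pair, 5 of 5 macrophage markers were lower in KO (median log2 difference -0.53), with a summed signal of 20717.3 in KO and 29892.4 in WT. So were 3 of 3 seminal vesicle markers (median -2.39), with a sum of 1450.7 in KO and 7716.9 in WT. The part of these markers in the Postn differences was not tested.

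Thbs1 had 1426.6 in KO and 1002.9 in WT epididymal fat, 1.42-fold higher in KO, and 239.0 in KO and 113.0 in WT subcutaneous fat, 2.11-fold higher in KO. In brown fat both signals, 57.5 in KO and 60 in WT, were under the floor, so no fold is given. In subcutaneous fat 2.21% of measured genes were at least 2-fold higher in KO. Its second probe set, with 326.9 in KO and 266.6 in WT epididymal fat and 97.6 in KO and 85.0 in WT subcutaneous fat, was higher in KO in both depots by less than the SD between probe sets. In brown fat, where it was above the floor, it had 85.9 in KO and 93.2 in WT, a log2 difference of -0.12. The subcutaneous difference of the brightest probe set was under 2-fold in 4 alternatives, with log2 differences of 0.98 after quantile normalization, 0.93 after median centring, 0.64 with the mean of probe sets and 0.48 with the floor at the 60th percentile. The limma estimate for genotype was 0.53, with a 95% interval of -0.05 to 1.11 (adjusted p = 0.613). Platelets carry thrombospondin 1, and the summed signal of 5 platelet markers was 5039.0 in KO and 5149.7 in WT epididymal fat and 4629.9 in KO and 6059.8 in WT subcutaneous fat. In each of these depots 2 of the 4 measured markers were higher and 2 lower in KO, and Gp9 was under the floor on all 6 arrays. Their part in the Thbs1 differences was not tested.

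Sparc differed little between genotypes. Its signals were 30702.7 in KO and 28011.7 in WT epididymal fat, 30263.3 in KO and 27961.0 in WT subcutaneous fat, and 18048.0 in KO and 16136.3 in WT brown fat. The KO array was higher by 0.13, 0.11 and 0.16 on the log2 scale, each within the SD between probe sets, and the limma 95% interval ran from -0.15 to 0.42 (adjusted p = 0.728). After median centring the subcutaneous difference was -0.04. The second bright probe set had 18372.7 in KO and 18399.1 in WT subcutaneous fat and 10220.3 in KO and 10362.4 in WT brown fat. Of the genes measured in all 3 depots, 16.2% were higher in KO by any amount in each.

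In all, 1 of the 10 genes was at least 2-fold different between KO and WT in epididymal fat (Ncan, higher), beside 2.33% of all measured genes, 0.883% higher and 1.44% lower in KO. In subcutaneous fat there were 3 (Ncan and Thbs1 higher, Postn lower in KO), beside 2.96%, and in brown fat 3 (Ncan higher, Lum and Fbln1 lower in KO), beside 3.53%. Taking the depots in that order, the median log2 difference of the 10 genes was 0.15, 0.03 and 0.04, beside -0.023, 0.036 and -0.028 over all measured genes. Differences larger than the SD between probe sets were seen for 5, 4 and 4 of the 10 genes, beside 33.9%, 32.2% and 33.7% of all measured genes. With the mean of all probe sets 0 of the 10 genes were past 2-fold in epididymal fat, 2 (Ncan and Postn) in subcutaneous fat and 1 (Lum) in brown fat. The share of all measured genes was not counted at that setting.

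**Figure D3:**
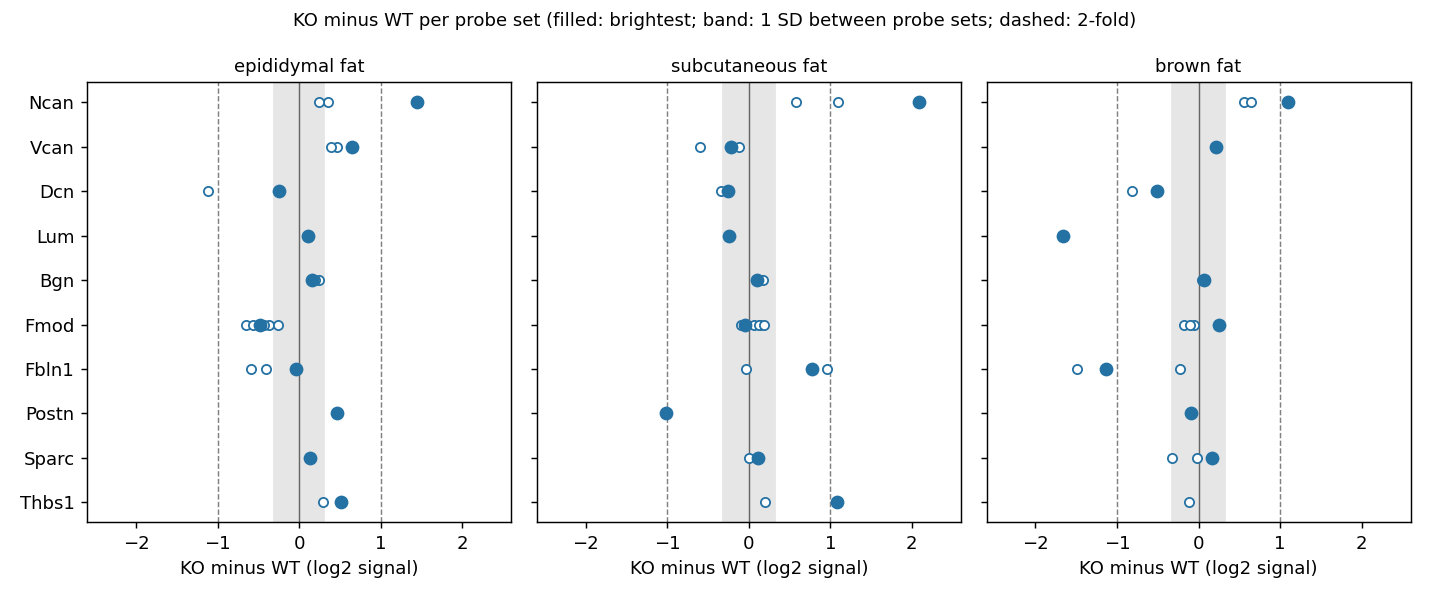
KO minus WT difference in log2 signal of each probe set above the floor on at least 1 of the 2 arrays of a depot, with the brightest probe set filled, a grey band of 1 SD between probe sets (0.31 to 0.32) and dashed lines at 2-fold. Ncan lies right of 0 with every probe set in every depot, Lum and Fbln1 reach past 2-fold lower in brown fat, and Postn does so in subcutaneous fat.

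The second comparison set brown fat against the 2 white depots. Here and in the third comparison, the KO and WT arrays of a depot take the place of replicates. The p-values, SEs and intervals of both comparisons leave out the variation among mice. Of the 10 genes 8 fell in brown fat (limma adjusted p under 0.05, 2 arrays against 4), 0 rose, and Ncan and Postn did not pass. Over all 13233 genes tested, 52.7% passed, 31.2% lower and 21.5% higher. The median log2 difference of the 10 genes was -1.85, beside -0.11 over all genes. All 10 genes passed the filter of 3 arrays above the floor, but Thbs1 did so only through the 4 white-fat arrays, so its difference had to be negative.

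Fmod had the largest difference of the 10. Its signals were 92.1 and 77.4 in brown fat, against 646.6 and 669.3 in subcutaneous and 3456.7 and 4827.3 in epididymal fat, KO before WT in each pair. The brown arrays lay below all white ones, and the fitted difference was 19.4-fold (log2 difference -4.28 ± 0.18 SE, limma adjusted p = 0.000439, lower in both brown arrays). That probe set is of a kind that can share probes with other transcripts, and the second Fmod probe set, which is not, gave a 6.16-fold lower level in brown fat (limma adjusted p = 0.000674 with probe sets as features). Of the other Fmod probe sets, 2 were under the floor on both brown arrays, so their direction was fixed by the filter and no fold is given. With the mean of all probe sets, under the floor or not, the log2 differences were -2.82 for Fmod, -0.80 for Vcan, -1.84 for Thbs1 and -1.08 for Fbln1, and all 4 still passed. Vcan had 116.5 in KO and 100.7 in WT brown fat, against 646.8 to 1480.5 on the white-fat arrays, an 8.39-fold lower level (limma adjusted p = 0.000542). The brown-fat signals of Fmod and Vcan lay near the floor. With the floor at the 60th percentile the log2 differences were -3.25 for Fmod and -2.4 for Vcan, in place of -4.28 and -3.07. Thbs1 was under the floor on both brown arrays, and the fitted difference against the floor was 7.02-fold (log2 difference -2.81, limma adjusted p = 0.000842). That size depends on the floor, with -1.52 at the 60th percentile, and its direction was fixed by the filter. Its second probe set, above the floor on all 6 arrays, was 1.83-fold lower (limma adjusted p = 0.00754).

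The other fibril-binding proteoglycans fell by smaller factors. Bgn was 3.74-fold lower in brown fat (log2 difference -1.90, limma adjusted p = 0.000505), and its 3 probe sets gave between 3.74-fold and 5.42-fold. Lum was 3.55-fold lower (limma adjusted p = 0.0128), with 1198.2 in KO and 3779.8 in WT brown fat, against 6867.4 to 8131.3 on the white-fat arrays. Dcn was 2.75-fold lower (limma adjusted p = 0.000969), with 6588.2 in KO and 9364.7 in WT brown fat, against 19244.4 to 24083.9 on the white-fat arrays. Fbln1 was 3.69-fold lower on its brightest probe set (limma adjusted p = 0.0124), its second probe set was 2.97-fold lower (limma adjusted p = 0.00113), and the third had a log2 difference of 0.23 (adjusted p = 0.721). Lum and Fbln1 had the wider intervals of these genes, -2.79 to -0.86 and -2.87 to -0.89. With no filter on dim genes both lost the call (limma adjusted p = 0.126 and 0.125). Without the brown KO array the log2 differences were -1.03 for Lum and -1.13 for Fbln1. Without the brown WT array they were -2.62 for Lum and -2.63 for Fbln1.

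Sparc was 1.71-fold lower in brown fat (log2 difference -0.78 ± 0.12 SE, limma adjusted p = 0.00469), with 18048.0 in KO and 16136.3 in WT brown fat, against 27961.0 to 30702.7 on the white-fat arrays. After quantile normalization its log2 difference was -1.37. Postn had 4207.4 in KO and 4467.8 in WT brown fat, below the 4 white-fat signals of 4875.2 to 9920.6, but the difference of -0.56 had an interval of -1.35 to 0.24 and did not pass (limma adjusted p = 0.189). Without the subcutaneous KO array Postn passed (-0.86, limma adjusted p = 0.0158). Ncan had a difference of 0.20 with an interval of -0.38 to 0.77 (limma adjusted p = 0.493), and its brown and white signals overlapped. Markers of fibroblasts and adipocyte precursors summed to 20176.4 in KO and 29132.7 in WT brown fat, against 62351.6 to 92570.6 on the white-fat arrays, and their part in these depot differences was not tested.

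The third comparison set subcutaneous against epididymal fat. Fmod and Thbs1 fell in subcutaneous fat, 2 of the 10 genes, and 0 rose, while 5.06% of all genes tested passed, 1.16% lower and 3.91% higher. Fmod had 646.6 in KO and 669.3 in WT subcutaneous fat, against 3456.7 in KO and 4827.3 in WT epididymal fat, a 6.21-fold lower level (log2 difference -2.63 ± 0.21 SE, limma adjusted p = 0.00645). All 6 Fmod probe sets passed when fitted as features of their own, by 4.58-fold to 6.30-fold. Thbs1 had 239.0 in KO and 113.0 in WT subcutaneous fat, against 1426.6 in KO and 1002.9 in WT epididymal fat, a 7.28-fold lower level (log2 difference -2.86 ± 0.28 SE, limma adjusted p = 0.00941). Its second probe set was 3.24-fold lower (limma adjusted p = 0.0126 with probe sets as features).

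For both genes the groups did not overlap, which also held for Vcan, Bgn and Fbln1, and these did not pass. The share of all genes without overlap was not counted, and the calls rest on few arrays. Without the epididymal WT array 0 of the 10 genes passed (adjusted p = 0.0581 for Fmod and 0.104 for Thbs1), and without the epididymal KO array 1 passed, Fmod. With the floor at the 20th percentile, or with no filter on dim genes, 0 passed, at the same fitted differences. The 7 mesothelial markers summed to 306.5 in KO and 411.0 in WT subcutaneous fat, with 3 above the floor on each array, against 9733.3 in KO and 11281.9 in WT epididymal fat. Other markers were higher in subcutaneous fat. Those of skeletal muscle summed to 62192.1 in KO and 53900.9 in WT, against 2161.6 in KO and 5200.2 in WT epididymal fat. Lymphoid markers summed to 9844.4 in KO and 10596.7 in WT, against 536.7 in KO and 748.6 in WT epididymal fat. The part of these 3 kinds of markers in the Fmod and Thbs1 differences was not tested. Centring on the median shifted the median of all genes in this comparison to -0.33, beside 0.0 on the deposited scale. The share of higher genes among all calls was then 27.2%, beside 77.2% on the deposited scale and 62.5% after quantile normalization. Under median centring Fmod had a difference of -2.98 and Thbs1 of -3.21, and Vcan passed as well (-1.10, limma adjusted p = 0.0230).

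Vcan, at 646.8 in KO and 754.9 in WT subcutaneous fat against 1480.5 in KO and 945.5 in WT epididymal fat, had a difference of -0.76 with an interval of -1.36 to -0.16 (limma adjusted p = 0.157). Ncan had a difference of 0.78 with an interval of 0.12 to 1.45 (limma adjusted p = 0.176). For Dcn the interval ran from -0.46 to 0.31, for Bgn from -0.62 to 0.08 and for Sparc from -0.36 to 0.34. These 3 intervals stay within 2-fold on these arrays and the deposited scale, and they leave out the variation among mice. After median centring the differences were -0.42 for Dcn, -0.61 for Bgn and -0.35 for Sparc. The intervals of Lum (-1.14 to 1.09), Postn (-0.67 to 1.17) and Fbln1 (-1.72 to 0.56) reach past 2-fold, so these arrays do not bound their differences to that size.

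**Figure D4:**
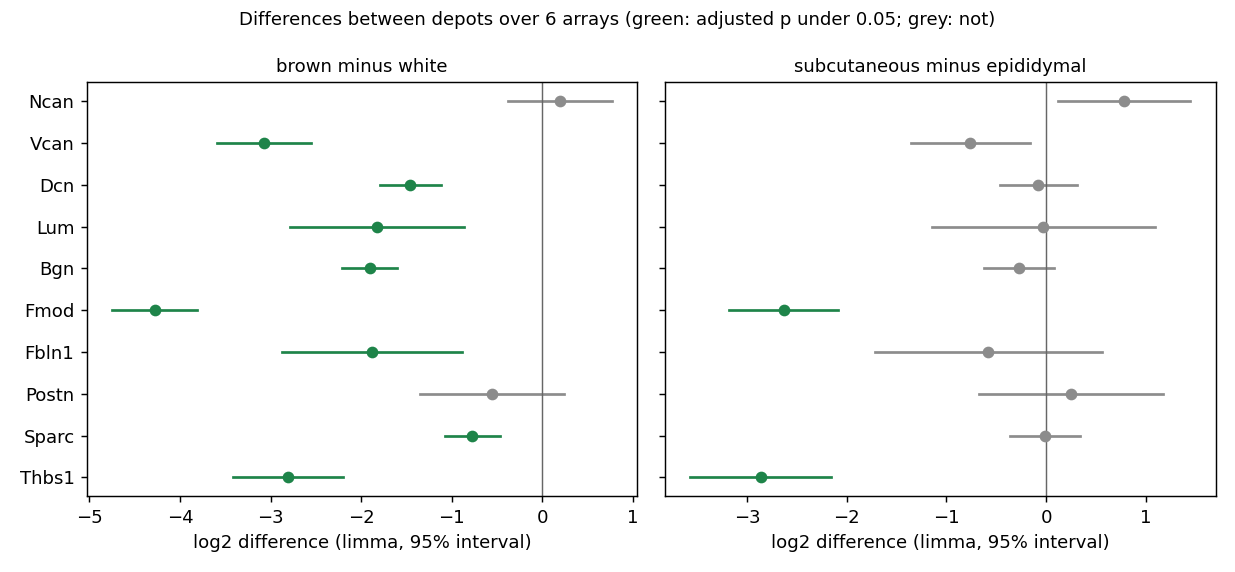
Log2 differences between depots for the 10 genes from the limma fit of 6 arrays, brown minus the mean of the white depots on the left and subcutaneous minus epididymal fat on the right, with 95% intervals as bars and genes past an adjusted p of 0.05 in green. In brown fat 8 genes fell, and in subcutaneous fat Fmod and Thbs1 fell.

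The order of signals over the depots was read from the brightest probe sets. On these, Fmod, Thbs1, Vcan, Bgn and Fbln1 were highest on the 2 epididymal arrays, then the 2 subcutaneous, then the 2 brown arrays, without overlap. The share of all genes with this order was not counted, and the brown-fat signals of Thbs1 were under the floor. Of the steps between the white depots, those of Fmod and Thbs1 passed the test and those of Vcan, Bgn and Fbln1 did not. For Dcn, Lum, Sparc and Postn the white depots overlapped and brown fat was lowest.

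Other genes of the same matrix, 98 on the array in 8 lists, gave a background of related genes. Of the 80 that could be tested, 56 fell and 6 rose in brown fat (limma adjusted p under 0.05), with a median log2 difference of -1.05, beside 31.2% lower, 21.5% higher and a median of -0.11 over all genes tested. The counts of single lists that follow include the 10 genes. Among small leucine-rich proteoglycans 10 of 11 genes tested fell in brown fat, among them Ogn (osteoglycin, 7.89-fold lower) and Omd (osteomodulin, 4.59-fold lower). Among fibulins 5 of 6 fell, with Efemp1 11.9-fold and Fbln5, which takes part in elastic fibre assembly, 3.78-fold lower. Among matricellular genes 16 of 18 fell, with Tgfbi 6.13-fold and Fstl1 6.07-fold lower. A tested gene under the floor on both brown arrays, as Thbs1 was, passed the filter only through white fat, so its direction was fixed. Fewer genes were measured in brown fat than were tested for fibulins (5), matricellular genes (16) and the chondroitin and dermatan sulfate genes below (17). The measured genes include some that were not tested, so other lists may also hold genes of fixed direction. Such genes were not left out of the counts of the lists or of the 80.

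For hyaluronan-binding proteoglycans and their link proteins the counts were small. Of 6 genes tested, 1, Vcan, fell in brown fat and 2 rose, Hapln4 by 3.02-fold (limma adjusted p = 0.00122) and Acan, which encodes the cartilage proteoglycan aggrecan, by 1.56-fold (limma adjusted p = 0.0121). Among heparan sulfate proteoglycans 10 of 13 fell and 2 rose, with Gpc1, which encodes a glypican of the cell surface, 11.2-fold lower. Among genes that build chondroitin and dermatan sulfate chains 11 of 19 fell and 2 rose, with the dermatan sulfate epimerase gene Dse 8.73-fold lower. For hyaluronan handling 2 of 6 fell, a share near that of all genes, and these were the hyaluronan receptor genes Cd44 (10.3-fold) and Lyve1 (8.33-fold). Of 12 receptor genes, 10 fell, among them Cd47, a thrombospondin receptor gene (3.0-fold), and Stab1, a scavenger receptor gene for Sparc (3.63-fold).

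Between the white depots 4 of the 80 other genes fell in subcutaneous fat and 0 rose, beside 1.16% lower and 3.91% higher over all genes. They were Spock2 (2.72-fold), Ccn2, which encodes connective tissue growth factor (2.63-fold), and the glypican genes Gpc3 (2.12-fold) and Gpc4 (1.99-fold), with limma adjusted p between 0.00941 and 0.0316. For genotype 0 of the 80 passed, with 11 at an unadjusted p under 0.05, beside 8.34% of all genes. Past 2-fold in a depot were Ccn3, 2.39-fold higher in KO epididymal fat (1228.1 in KO, 513.0 in WT), and in brown fat Efemp1, 2.27-fold lower (412.2 in KO, 934.7 in WT), and Fbln7, 2.34-fold lower (70.5 in KO, 165.3 in WT). With Fbln1, 3 of the 5 fibulin genes measured in brown fat were thus at least 2-fold lower in KO, beside 2.42% of all measured genes. In that pair of arrays the fibroblast and precursor markers were lower in KO for 9 of 9 genes (median log2 difference -0.46) and the skeletal muscle markers for 10 of 10 (median -4.42), and their part in the fibulin differences was not tested. Chst3, a chondroitin sulfotransferase gene, was at least 2.01-fold higher in KO subcutaneous fat (126.9 in KO, 16.2 in WT). Has1, a hyaluronan synthase gene, was at least 2.13-fold higher in KO brown fat (134.4 in KO, 61.8 in WT).

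**Figure D5:**
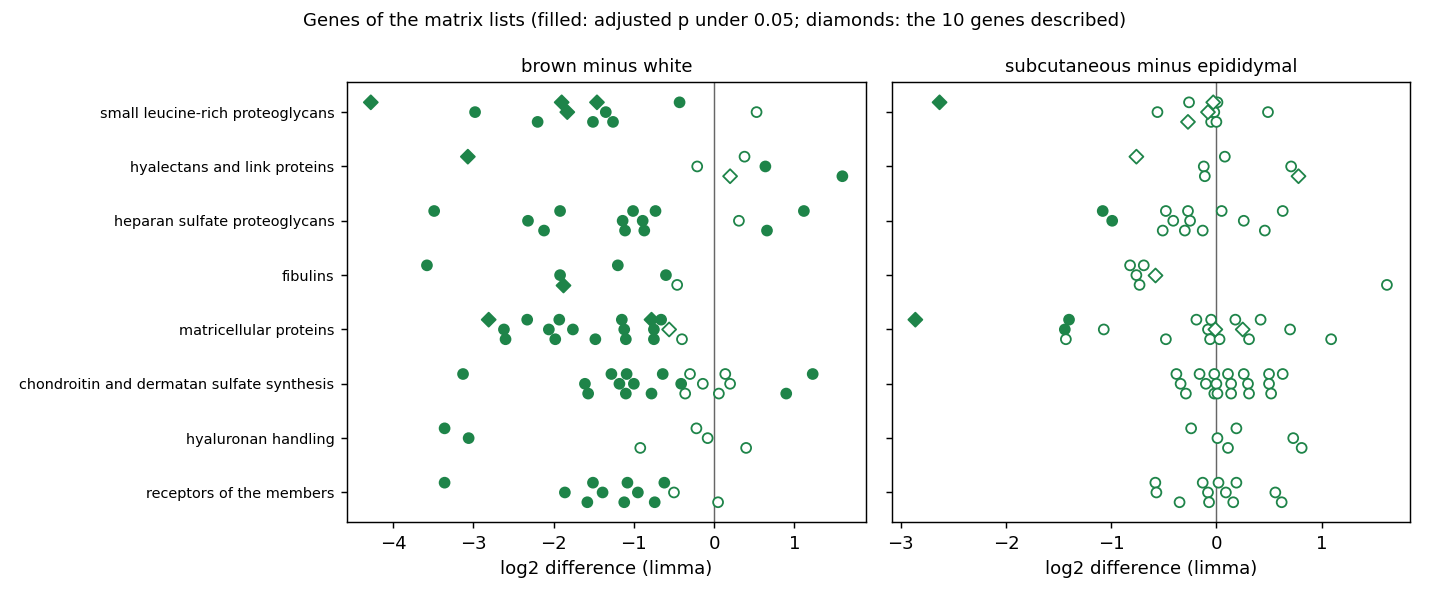
Log2 differences from the limma fit for every tested gene of the 8 matrix lists, brown minus white on the left and subcutaneous minus epididymal on the right, filled where the adjusted p is under 0.05 and as diamonds for the 10 genes described. Most filled points in the left panel lie left of 0, except among hyalectans and link proteins, while few points on the right are filled.

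The pattern of Ncan over the 6 arrays was unlike that of the other 9 genes, with Pearson r between -0.33 and 0.05. The genes most like it among the 13232 others tested were Pax6 (r = 0.985), Grb14 (r = 0.980) and Dpp3 (r = 0.967). Vcan, Bgn and Sparc were alike (r = 0.97 to 0.99), as were Dcn and Lum (r = 0.95), and Fmod and Thbs1 (r = 0.95). These are not separate groups, since r was 0.95 for Dcn and Bgn, 0.94 for Vcan and Fmod and 0.92 for Lum and Fbln1. The genes most like Fmod were Penk, Minpp1 and C6 (r = 0.997 to 0.998), and those most like Dcn were Igf1, Dpep1 and Igfbp7 (r = 0.998 to 0.999). For Thbs1 they were Eya2, Slc9b2 and Hipk2 (r = 0.995 to 0.996). The 6 arrays share 3 depots and 2 genotypes, and these values describe likeness on these arrays only.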

How the data were processed

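The values were Affymetrix probe set intensities deposited as 1 table of 6 arrays. The authors made them with MAS5 in Affymetrix Expression Console, per the submitters' processing notes, which name no version. The deposited intensity values have a 2%-trimmed mean of 500.0 on every array, so a shift common to all transcripts is scaled away. Of 45037 probe sets other than controls, those with 1 gene symbol were kept, together with 13 control probe sets of named genes, 34958 in all, and 932 with several symbols were left out. Gene identifiers were looked up in a RefSeq table (GRCm38.p6), where 34754 were found. No other per-sample column was used.

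Signals below the 40th percentile were set to that value, the floor, all were put on the log2 scale, and each gene was represented by its probe set with the highest mean. Within a depot, genes with either array above the floor counted as measured, and "at least" precedes a fold whose dimmer array did not exceed it. Genes exceeding the floor on 3 or more arrays were tested with limma 3.58.1 in R 4.3.3, with depot and genotype as terms, Benjamini-Hochberg adjustment over all genes and a threshold of 0.05. The fit was tested on simulated data with known changes. Tables and plots were made in Python 3.11.15 (pandas 2.3.3, numpy 2.4.6, matplotlib 3.10.9). The number of arrays limits the precision.

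The genes and lists were chosen with earlier results of these data known. Named besides the 10 genes are list genes past 2-fold in a depot whose brighter array reaches 2 times the floor, up to 3 genes per list with the largest called difference in a comparison, and the 3 genes most like a member. Alternatives were other scalings, floors, probe set choices and filters, an intensity trend in limma, a 1.5-fold threshold, and leaving out arrays or depots.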

Additional observations from a re-analysis of the deposited data

Results flagged for a closer look

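Postn differed in opposite directions in 2 depots, by more than the SD between probe sets in each. The log2 difference of KO minus WT was 0.46 in epididymal and -1.02 in subcutaneous fat. Fbln1 did so as well, with 0.77 in subcutaneous and -1.14 in brown fat on its brightest probe set, while its second probe set does not show the subcutaneous difference. With 1 array per depot and genotype the difference between depots was not tested for either gene.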

How the results depend on the processing

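The number of the 10 genes called in brown against white fat was 8, and 6 with no filter on dim genes. It was 8 under the other alternatives that kept all 6 arrays. Among these settings the share of all tested genes called ran from 27.3% with no filter to 61.8% with the floor at the 60th percentile, beside 52.7% in the main setting. Thbs1 was among the called genes each time, and the filter fixed its direction in the main setting. For genotype the number of the 10 genes called was 0 under every alternative except median centring, with 1 (Ncan). An intensity trend in limma called 33 genes of the whole table for genotype, where the fit without it called 0, but none of the 10. Comparing the white depots, 2 of the 10 were called, and 0 with the floor at the 20th percentile or with no filter on dim genes, 3 after median centring and 0 to 2 with 1 array left out. Over the whole table that comparison called 670 genes, against 84 with no filter, 86 with the lower floor, 78 without the epididymal KO array, 83 without the epididymal WT array, 1292 with a trend and 1898 after median centring. Past 2-fold in epididymal fat were 0 genes with the floor at the 60th percentile or the mean of all probe sets, and 2 at a 1.5-fold threshold, where the main setting had 1. In brown fat 1 was past 2-fold under each of the first 2 settings, where the main setting had 3. The shares of all measured genes past these folds were not counted under the alternatives.

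Directions turned for differences that had passed no test. The Ncan difference between brown and white fat was -0.07 with the floor at the 60th percentile and -0.13 to 0.53 with 1 array left out. Between subcutaneous and epididymal fat the difference was 0.09 for Lum and 0.04 for Sparc after quantile normalization, -0.09 for Postn after median centring, and 0.09 for Dcn with the mean of probe sets. With 1 array left out it was -0.56 to 0.50 for Lum, -0.35 to 0.85 for Postn, -1.26 to 0.10 for Fbln1 and -0.03 to 0.0047 for Sparc. For genotype, leaving out 1 array gave -0.01 to 0.43 for Vcan, -0.27 to 0.10 for Fmod, -0.59 to 0.36 for Fbln1 and -0.56 to 0.18 for Postn. Leaving out a whole depot gave -0.01 for Vcan and 0.10 for Fmod (epididymal), 0.36 for Fbln1 (brown) and 0.18 for Postn (subcutaneous). Where 1 array is left out, its partner tells nothing about genotype, and the lone array is assumed to vary like the others. The cause of these changes was not tested. The KO and WT arrays are paired by depot, which the fit holds as a term, and the labels give no replicate numbers for a further block. Signals near the floor limit what can be said of Ncan, of brown-fat Thbs1, and of the size of the differences of Fmod and Vcan between brown and white fat.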
